A study of Homo sapiens with 24 samples.

Results

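The comparison described here is that of Flp-In T-REx 293 cells given tetracycline for 48 h with the same cells left untreated. It rests on the 4 samples titled FLP (2 untreated) and FLP_TET (2 treated) of the 24 samples in the series, which studies the RPRD proteins. Flp-In T-REx 293 is a derivative of the human embryonic kidney line 293 that carries a site for inserting a gene and a repressor that tetracycline releases. The parent cells carry no inserted RPRD1B gene, so the comparison holds the response to the antibiotic in cells in which it should switch on no introduced gene. The labels give neither the dose nor a solvent for the untreated cells. All groups were grown in DMEM with heat-inactivated serum and with penicillin and streptomycin, so the controls also carried antibiotics. The labels do not say whether the 2 samples of a group were separate cultures, so every p-value measures only the spread between these samples, which may be technical. The 4 samples of a second line, RPRD1B_FL with and without tetracycline, entered the fit to estimate that spread and are compared at the end. The labels do not explain FL.

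Tetracyclines stop bacterial protein synthesis by binding the small ribosomal subunit. Mitochondria keep ribosomes of bacterial descent, which translate the few messenger RNAs (mRNAs) encoded by mitochondrial DNA, and tetracyclines are known to inhibit them. In cultured human cells, loss of mitochondrial translation is known to unbalance the respiratory chain, whose other subunits are encoded in the nucleus, to engage the transcription factor ATF4 and its amino acid synthesis targets, and to move cells toward glycolysis. Tetracyclines also bind metal ions and inhibit matrix metalloproteinases. The gene lists below follow these roles, from the mitochondrial ribosome outward.

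The libraries were 3′ end libraries (QuantSeq REV) that give about 1 read per polyadenylated transcript, so levels are given as CPM (counts scaled to a common library size) without division by length. Parent-line totals ran from 2678571 to 3531106 counts in genes, and 3 counts, taken as the floor of detection, came to 0.832 to 1.09 CPM. The counts carry no molecular identifiers, so this floor covers counting error only. All 37 gene names of mitochondrial DNA were listed at 0 in all 24 samples, so the transcripts nearest to the known target of the drug could not be described. The first untreated library, FLP_1, stood apart from FLP_2. Divided by its degrees of freedom, the chi-square of the untreated pair was 4.54, against 2.01 for the treated pair, and FLP_1 held 1364 CPM of MALAT1, a nuclear long noncoding RNA, against 540.4 CPM in FLP_2. The 12 markers of 293 cells summed to 1213 and 1265 CPM in FLP and to 1334 and 1353 CPM in FLP_TET. Fibroblast, hepatocyte, blood cell and keratinocyte marker sets summed to at most 7.76 CPM in any of the 4 libraries, and all 5 keratinocyte markers were at 0. A set of colon and breast epithelium markers summed to 420.4 and 488 CPM in FLP and to 636 and 641 CPM in FLP_TET, nearly all of it CDX2, GATA3 and KRT19, while VIL1 was at 0 and LGALS4 and ESR1 had 1 count each. KRT19, a keratin gene that made the difference, measured 292.4 and 368.5 CPM in FLP and 516.5 and 506.2 CPM in FLP_TET and was not called (adjusted p = 0.0667). The part of these sets in the results was not tested.

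Tetracycline went with lower levels of AT-rich transcripts and higher levels of GC-rich ones, over nearly the whole range of genes. With a gene called when its adjusted p was under 0.05 in edgeR's quasi-likelihood test, 122 of 11948 genes passed, which is 1.02% of those tested. The 27 that rose (0.226%) had a median transcript GC content of 62.2%, and the 95 that fell (0.795%) had one of 40.3%, against 48.6% over all genes tested. Of the 94 fallers with a GC value, 80 lay below that overall median. The base makeup of 2 fallers and 2 risers is shown by 90 coding bases from the middle of each, chosen as examples of called genes at the ends of the range (GRCh38, GENCODE 29 transcripts, written 5′ to 3′ along the mRNA, with G and C in capitals).
HMGN5: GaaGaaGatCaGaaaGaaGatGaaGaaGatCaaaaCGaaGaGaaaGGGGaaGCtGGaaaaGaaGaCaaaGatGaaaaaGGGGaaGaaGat
ESF1: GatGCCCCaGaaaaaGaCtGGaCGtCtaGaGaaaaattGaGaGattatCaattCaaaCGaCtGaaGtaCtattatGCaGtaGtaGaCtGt
RAC3: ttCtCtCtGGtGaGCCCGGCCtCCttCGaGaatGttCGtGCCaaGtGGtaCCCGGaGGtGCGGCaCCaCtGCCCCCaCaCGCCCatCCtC
FAM207A: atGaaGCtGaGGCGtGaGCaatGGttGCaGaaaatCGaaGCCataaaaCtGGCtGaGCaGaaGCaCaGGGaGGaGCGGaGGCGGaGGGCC

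HMGN5, which encodes a nucleosome-binding protein (gene at chrX:81113701-81201942, minus strand), and ESF1, which encodes a nucleolar protein of ribosomal RNA processing (chr20:13714322-13784886, minus strand), each hold 34 G or C in the stretch of 90 shown. RAC3, a small GTPase gene (chr17:82031624-82034204, plus strand), holds 58 and FAM207A (chr21:44940010-44976989, plus strand) holds 51. Over the whole transcript GC content was 33.8% in HMGN5 and 35.4% in ESF1, against 66.7% in RAC3 and 65.8% in FAM207A. HMGN5 measured 56.9 and 21.6 CPM in FLP and 15.04 and 14.94 CPM in FLP_TET. ESF1 measured 77.7 and 39.7 CPM in FLP and 21.2 and 23.5 CPM in FLP_TET. In both genes the first untreated library was far above the second, and both treated libraries lay below both. ESF1 fell by 1.37 and HMGN5 by 1.35 on the log2 scale, and without FLP_1 their values were -0.83 and -0.53. RAC3 measured 37.2 and 44.6 CPM in FLP and 85.3 and 74.4 CPM in FLP_TET. FAM207A measured 52.9 and 64.6 CPM in FLP and 120.7 and 94.1 CPM in FLP_TET. These are read against a background in which both treated values lay above both untreated values in 3471 genes (29.1%) and below them in 3451 (28.9%).

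The fold change followed GC content in steps across all genes with a value. With the genes cut into deciles by GC content, the median log2 fold change rose from -0.38 in the most AT-rich decile (28.5% to 38.8% GC) through -0.05 in the fifth to 0.38 in the most GC-rich decile (62.0% to 74.7% GC). Spearman's rank correlation of fold change with GC content was 0.56 across 11869 genes, which share libraries and are not independent replicates. It was present in each treated library set against each untreated one, from 0.388 (FLP_TET_1 over FLP_2) to 0.552 (FLP_TET_2 over FLP_1). The GC content of the last 300 bases, nearer to where the reads lie, gave 0.48. Of the called genes, 29 fallers and 0 risers came from the most AT-rich decile, and 0 fallers and 14 risers from the most GC-rich decile.

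**Figure D1:**
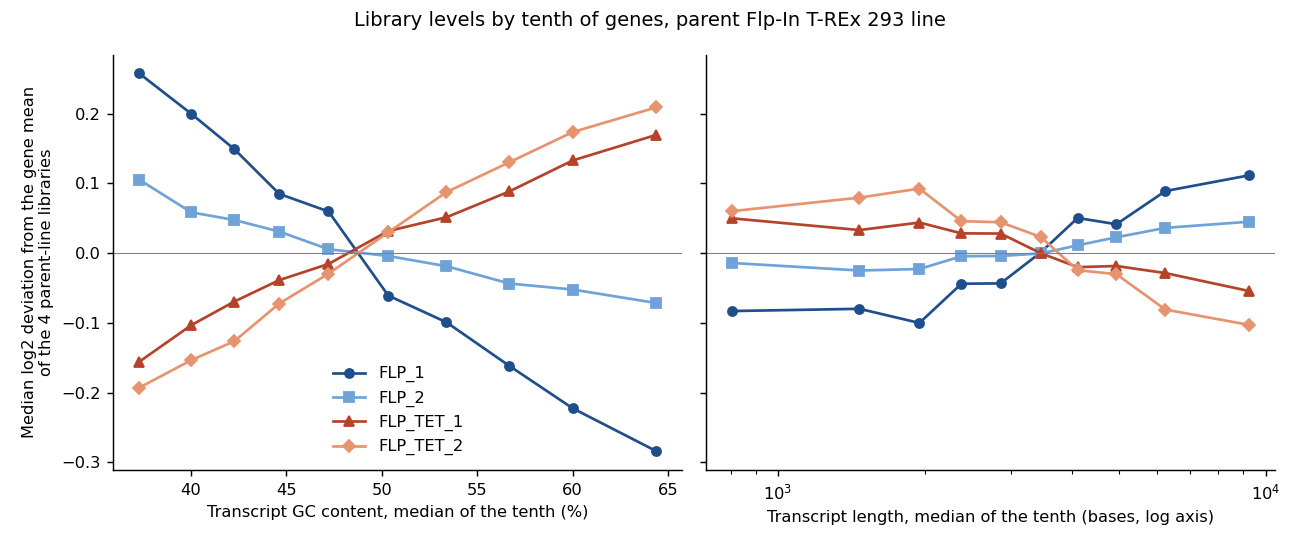
Median log2 deviation of each parent-line library from the gene's mean over the 4 libraries (vertical axis), for deciles of genes by transcript GC content in percent (left) and by transcript length in bases on a log axis (right); each point is 1 decile and each line 1 library. FLP_1 runs from 0.26 in the most AT-rich decile to -0.28 in the most GC-rich one, FLP_2 from 0.11 to -0.07, and FLP_TET_1 and FLP_TET_2 run the other way, up to 0.17 and 0.21.

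Transcript length moved with the fold change less strongly, and mostly together with GC content. The median log2 fold change was 0.11 in the decile of genes with the shortest transcripts and -0.16 in the decile with the longest (7269 bases or more), and the rank correlation with length was -0.20. Long transcripts are AT-richer (rank correlation of length with GC content -0.29). A curve of each library's deviation on GC content was therefore removed, on length, or on both. With GC content removed, the rank correlation with length was -0.05, while with length removed, the rank correlation with GC content stayed at 0.51. A grid of tertiles of GC content and length gave the same order. Among AT-rich genes the median was -0.21 in short, -0.24 in middle and -0.30 in long transcripts, among GC-rich genes 0.31, 0.27 and 0.21, and among genes of middle GC content 0.01, -0.00 and -0.01. Length of the 3′ untranslated region, which is itself AT-richer when long (rank correlation -0.41), had a rank correlation of -0.23 with fold change before and 0.0013 after the GC curve, coding length -0.10 before and -0.11 after, gene span -0.21 and -0.03, and number of exons -0.06 and -0.03.

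The same slope on GC content separated libraries within groups. The rank correlation of a library's deviation from the mean of the 8 Flp-In libraries with GC content was -0.50 in FLP_1, -0.31 in FLP_2, 0.27 in FLP_TET_1 and 0.40 in FLP_TET_2. Between the 2 untreated parent libraries alone it was 0.33, between the 2 treated ones 0.11, and between same-group libraries of the RPRD1B_FL line -0.45 and -0.49. A GC slope of this size therefore also lay between libraries that shared line and treatment. Its part in the tetracycline comparison was not tested, and an effect of the drug on transcripts by base composition and a difference between libraries cannot be told apart in these groups of 2.

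With both curves removed, 168 genes passed the test (1.41%), 45 higher (0.377%) and the rest lower (1.03%). Their GC content no longer stood apart, at a median of 47.1% in risers and 51.5% in fallers. Only 64 genes passed both with and without the correction, 12 risers and 52 fallers, and 58 passed without it only and 104 with it only. List medians below are mostly given with both values, and some single genes with the uncorrected value only. Counts of called genes in a list stand against 1.02% of all genes called without the correction and 1.41% with it. At shares this low most lists would hold few calls or 0, so 0 calls in a list is no result on its pathway. The correction removes any real response that follows base composition as well. In bulk RNA, fewer cells with a transcript and less of it per cell cannot be told apart.

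**Figure D2:**
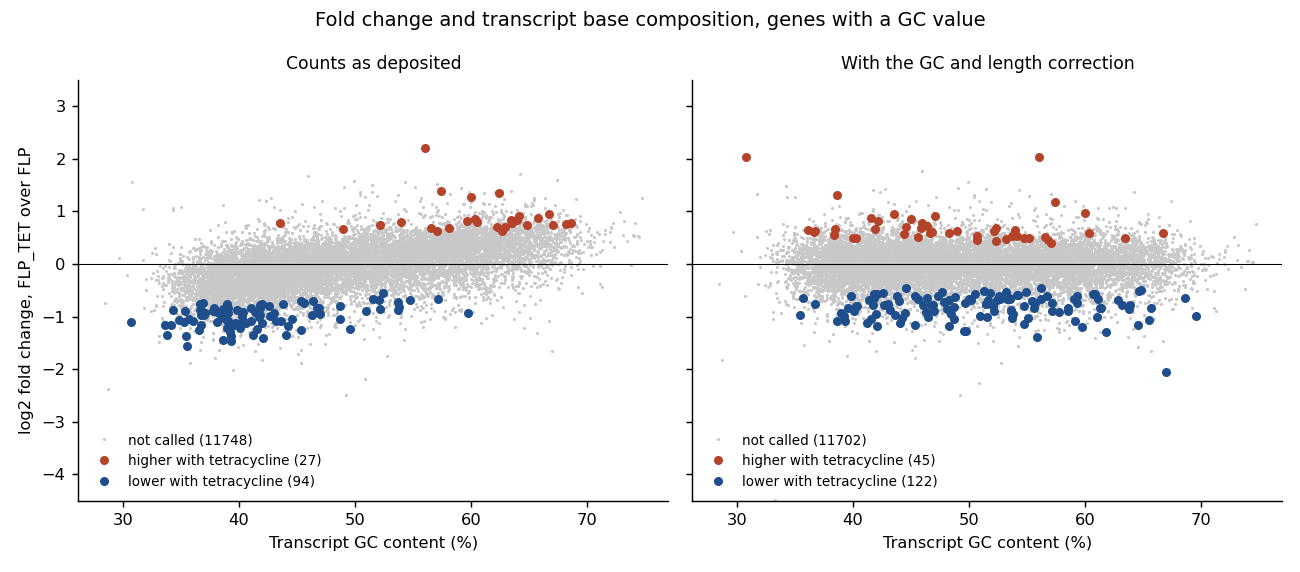
Each point is 1 gene with its transcript GC content in percent on the horizontal axis and its log2 fold change (FLP_TET over FLP) on the vertical axis, from the counts as deposited (left) and after the curves on GC content and length were removed (right). On the left the 27 risers sit at a median GC content of 62.2% and the 94 fallers with a GC value at 40.3%; on the right the 45 risers and 122 fallers spread over the range, and 2 genes that were not called lie outside the axes.

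FLP_1 weighed heavily on the fallers. It was the highest of the 4 libraries in 92 of the 95, and the median ratio of FLP_1 to FLP_2 was 1.53 in these genes, 0.818 in the 27 risers and 0.986 in genes not called. The ratio of FLP_TET_1 to FLP_TET_2 was 1.01 in the fallers. Without FLP_1 the median log2 fold change of the 95 moved from -0.98 to -0.64 and that of the 27 risers from 0.78 to 0.67, and no gene passed at all, with 984 genes at an unadjusted p under 0.05 against 2711 with it. Leaving out FLP_TET_1 or FLP_TET_2 also left 0 genes called, with 1586 and 1543 at an unadjusted p under 0.05, while leaving out FLP_2 gave 681. With the correction, leaving out FLP_1, FLP_2, FLP_TET_1 or FLP_TET_2 gave 1, 738, 0 and 0 genes, a check chosen after the data were seen. None of the calls made without the correction below therefore holds without FLP_1, FLP_TET_1 or FLP_TET_2.

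The respiratory chain showed 2 opposite single-gene changes and no shared direction. NDUFA9, an accessory subunit of complex I, measured 101.0 and 136.7 CPM in FLP and 205 and 203 CPM in FLP_TET, and it rose by 0.78 ± 0.18 (log2, SE; adjusted p = 0.0468, edgeR), or 0.95 ± 0.18 with the correction (adjusted p = 0.0190). The transcript used for it here, of 8363 bases, is AT-rich (43.6% GC), so on that value its rise ran against the trend. Whether the cells express that transcript was not tested. NDUFA1, another accessory subunit, measured 458 and 258 CPM in FLP and 192 and 211 CPM in FLP_TET, and it fell by 0.83 ± 0.19 (adjusted p = 0.0468), or by 0.95 ± 0.19 with the correction (adjusted p = 0.0220). The untreated libraries of NDUFA1 lay further apart than FLP_2 lay from the treated ones, and without FLP_1 its value was -0.36. Of the 36 complex I subunits tested, the other 34 were not called either way, and their most abundant members NDUFS6 and NDUFB8 had log2 fold changes of -0.07 and 0.24. The list's median was 0.09, or 0.05 with the correction, beside -0.0055 and 0.0044 over all genes tested.

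Among the 40 nuclear subunits of complexes II to V, 0 were called without the correction. With it COX6C (complex IV) and ATP5I (complex V) fell and ATP5G1, which encodes the membrane ring subunit of complex V, rose. COX6C measured 621 and 418 CPM in FLP and 311 and 303 CPM in FLP_TET. ATP5I measured 444 and 291 CPM in FLP and 223 and 245 CPM in FLP_TET, and its corrected value was -0.84 (adjusted p = 0.0225). Without FLP_1 the corrected values of COX6C and ATP5I were -0.29 and -0.43. ATP5G1 measured 528 and 674 CPM in FLP and 924 and 919 CPM in FLP_TET, and its corrected value was 0.49 (adjusted p = 0.0459). No pair of values overlapped in these genes. The list's median was -0.05, or 0.04 with the correction.

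The machinery of mitochondrial translation held a single call. Of 74 mitochondrial ribosomal protein genes 1 was called, MRPL10, a large subunit protein, which measured 34.3 and 33.3 CPM in FLP and 60.5 and 56.6 CPM in FLP_TET. Its untreated values were close together, it rose by 0.79 ± 0.18 (adjusted p = 0.0468) or 0.65 with the correction (adjusted p = 0.0433), and its value without FLP_1 was 0.81. The non-overlapping members of the list were split evenly, 26 higher and 26 lower of 74, beside 29.1% and 28.9% of all genes, and the list's median was 0.03, or -0.02 with the correction. None of the 40 factors of mitochondrial transcription, RNA handling and translation was called either way, beside 1.02% and 1.41% of all genes. Their median was -0.03, or -0.0075 with the correction. TFAM, which packages mitochondrial DNA and acts in its transcription, measured 281 and 196 CPM in FLP and 162 and 133.5 CPM in FLP_TET. Its log2 fold change was -0.69 (adjusted p = 0.0588), and -0.34 with the correction. TUFM, the mitochondrial elongation factor that brings aminoacyl-tRNA to the ribosome, measured 491 and 568 CPM in FLP and 630.1 and 677 CPM in FLP_TET (0.30, adjusted p = 0.223). None of the 17 mitochondrial aminoacyl-tRNA synthetase genes was called, with a median of -0.04, or 0.03 with the correction.

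Mitochondrial protein quality control gave 1 faller, HSCB, a co-chaperone of iron-sulphur cluster assembly. HSCB measured 27.4 and 17.5 CPM in FLP and 9.14 and 9.53 CPM in FLP_TET, and it fell by 1.24 ± 0.28 (adjusted p = 0.0468), or by 1.28 with the correction (adjusted p = 0.0225). HSPE1, the small partner of the mitochondrial chaperonin, fell with the correction only (-0.69, adjusted p = 0.0431), from 271 and 164 CPM to 137.5 and 142 CPM. That corrected value was -0.25 without FLP_1 and -1.03 without FLP_2. Its partner HSPD1 measured 705 and 636 CPM in FLP and 694 and 665 CPM in FLP_TET, overlapping values. LONP1 and CLPP, which encode proteases of the mitochondrial matrix that the unfolded protein response of this organelle is known to use, had log2 fold changes of 0.58 each (adjusted p = 0.0619 and 0.0635), and 0.25 and 0.24 with the correction. The median over the 18 genes tested was -0.0023, or 0.08 with the correction.

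ATF4 targets did not pass the test in either direction. Of 36 genes of the integrated stress response tested, 0 were called with or without the correction, beside 1.02% and 1.41% of all genes. A list of this size would hold few calls or 0 at those shares. The list's median of 0.15 became -0.01 once GC content and length were removed and 0.06 without FLP_1. ATF4 itself measured 1061 and 638 CPM in FLP and 663 and 736 CPM in FLP_TET, values that overlap. PYCR1 and SHMT2, enzymes of mitochondrial proline and one-carbon metabolism, had log2 fold changes of 0.56 and 0.57 (adjusted p = 0.0726 and 0.0667), and DDIT3, which encodes the stress factor CHOP, had 0.02. Among the 36, 16 did not overlap upward and 6 downward, beside 29.1% and 28.9% of all genes, the latter including the cystine transporter gene SLC7A11, at 31.4 and 20.5 CPM in FLP and 14.2 and 15.3 CPM in FLP_TET. Of 20 cytosolic aminoacyl-tRNA synthetase genes, many of them known ATF4 targets, MARS (methionyl) fell and, with the correction only, FARSB (phenylalanyl) rose. MARS measured 224 and 135 CPM in FLP and 96.5 and 96.9 CPM in FLP_TET, and it fell by 0.88 ± 0.19 (adjusted p = 0.0468), or by 1.03 with the correction (adjusted p = 0.0190). Without FLP_1 the values of MARS were -0.48 and -0.57. FARSB measured 55.8 and 71.0 CPM in FLP and 101.8 and 100.4 CPM in FLP_TET, with a corrected value of 0.86 (adjusted p = 0.0190).

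Endoplasmic reticulum stress genes held no call among 25 tested with or without the correction, beside 1.02% and 1.41% of all genes. The list's median was 0.05, or 0.16 with the correction, and the uncorrected value without FLP_1 was 0.01. HSPA5, the main chaperone of that compartment, measured 799 and 825 CPM in FLP and 888 and 919 CPM in FLP_TET (0.15, adjusted p = 0.507), and XBP1 had a log2 fold change of 0.20. Of 19 heat shock genes 1 fell. HSP90AA1, the inducible cytosolic HSP90, measured 3704 and 2181 CPM in FLP and 1571 and 1505 CPM in FLP_TET, and it fell by 0.94 ± 0.20 (adjusted p = 0.0463), or by 0.76 with the correction (adjusted p = 0.0225). Without FLP_1 its value was -0.50. The constitutive HSP90AB1 measured 4982 and 4264 CPM in FLP and 4783 and 4668 CPM in FLP_TET, and HSPA1B, an inducible HSP70 gene, had a log2 fold change of 0.29 (adjusted p = 0.254).

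Glycolysis had the highest median of the 33 lists with 10 or more genes tested once base composition and length were removed. Of 22 genes tested, 15 did not overlap upward and 2 downward, beside 29.1% and 28.9% of all genes. The median log2 fold change was 0.28 and it was 0.25 with the correction, and 1 gene, PFKL, passed the test both ways. PFKL, the liver-type phosphofructokinase of the committed step, measured 108.7 and 140.9 CPM in FLP and 216 and 229.8 CPM in FLP_TET. Both treated libraries lay above both untreated ones by more than the untreated pair differed, and it rose by 0.83 ± 0.18 (adjusted p = 0.0463), or by 0.49 ± 0.13 with the correction (adjusted p = 0.0493). The platelet-type PFKP measured 127 and 167 CPM in FLP and 234.5 and 228 CPM in FLP_TET, short of the threshold (0.65, adjusted p = 0.0560). ALDOA (aldolase) measured 599.8 and 663 CPM in FLP and 987 and 1039 CPM in FLP_TET (0.68, adjusted p = 0.0521). ENO1 (enolase) measured 1987 and 2423 CPM in FLP and 3224 and 3451 CPM in FLP_TET (0.60, adjusted p = 0.0667). GPI, TPI1, PGAM1 and PKM had log2 fold changes of 0.44, 0.39, 0.46 and 0.51, none of them called. With the correction ALDOA, ENO1 and TPI1 had 0.39, 0.34 and 0.20 and were not called either. GAPDH measured 2560 and 2719 CPM in FLP and 2969 and 3246 CPM in FLP_TET (0.24, adjusted p = 0.303), and its corrected value was -0.04.

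The entry and exit steps of the pathway did not share this pattern. The glucose carrier gene SLC2A1 measured 47.8 and 48.5 CPM in FLP and 40.7 and 49.6 CPM in FLP_TET, and HK1 (hexokinase), LDHA and LDHB (lactate dehydrogenase) had overlapping values too. SLC16A1, a lactate and pyruvate carrier, measured 250.5 and 203.5 CPM in FLP and 165 and 157 CPM in FLP_TET, for a log2 fold change of -0.49 (adjusted p = 0.0843). PDK1, the kinase that holds pyruvate back from the mitochondrion, measured 37.2 and 41.9 CPM in FLP and 34.2 and 26.4 CPM in FLP_TET. Of 18 hypoxia targets 0 were called without the correction and 1, ADM, fell with it (-0.83, adjusted p = 0.0493), and the list's median was -0.07, or 0.13 with the correction. None of 23 genes of the tricarboxylic acid cycle and pyruvate entry was called (median 0.11, or 0.07), beside 1.02% of all genes. CS, citrate synthase, measured 79.1 and 88.5 CPM in FLP and 100.3 and 115 CPM in FLP_TET (0.36, adjusted p = 0.199). The glycolysis median without FLP_1 was 0.20, and in the RPRD1B_FL line it was 0.11.

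**Figure D3:**
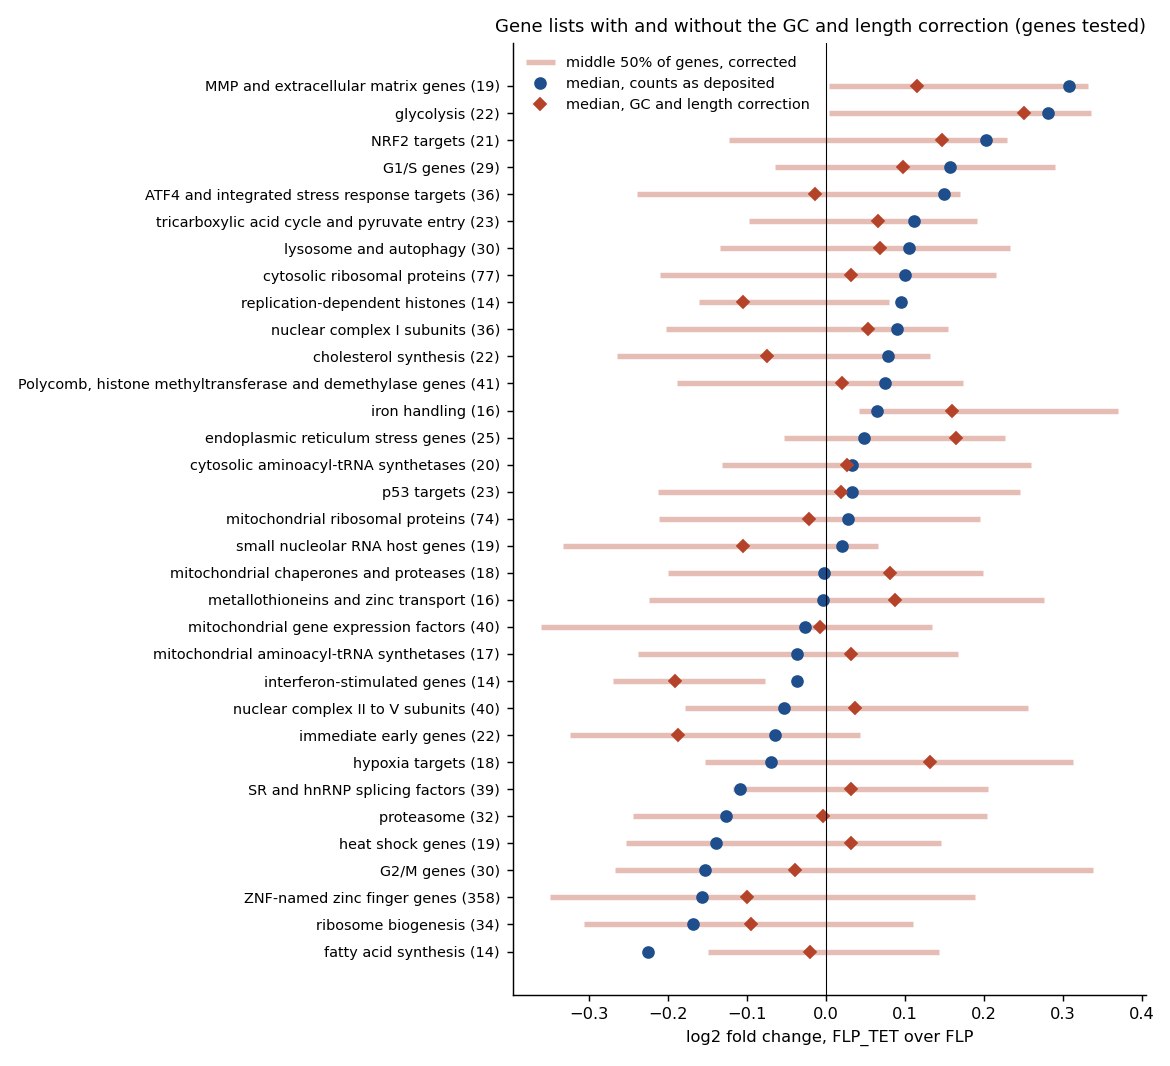
Median log2 fold change (FLP_TET over FLP, horizontal axis) of each of the 33 gene lists with 10 or more genes tested, from the counts as deposited (circles) and with the GC and length correction (diamonds, with the middle 50% of genes as bars); the number of genes tested stands in parentheses. The uncorrected medians run from -0.23 to 0.31 and the corrected ones from -0.19 to 0.25, and glycolysis, at 0.28 and 0.25, moves little while extracellular matrix genes move from 0.31 to 0.12.

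Across those 33 lists the median fold change followed the list's median GC content (rank correlation 0.59), and it did so no longer after the correction (rank correlation -0.10), so the differences between lists moved with base composition. Lists share genes and libraries, and this correlation is a description only. Extracellular matrix and metalloproteinase genes are 1 such list, at a median GC content of 60.3%. Their median of 0.31 became 0.12, COL6A1 (a collagen VI chain) rose without the correction only, and LAMB1 (a laminin chain) fell with it only. COL6A1 measured 37.9 and 48.8 CPM in FLP and 77.9 and 71.8 CPM in FLP_TET (0.78 ± 0.19, adjusted p = 0.0499), and its corrected value was 0.46 (adjusted p = 0.108). LAMB1 measured 107.9 and 70.2 CPM in FLP and 55.8 and 51.2 CPM in FLP_TET, with a corrected value of -0.74 (adjusted p = 0.0483), or -0.39 without FLP_1. MMP15 measured 29.9 and 40.2 CPM in FLP and 56.0 and 63.6 CPM in FLP_TET (0.76, adjusted p = 0.0843), and MMP9 and MMP14 were under 10 CPM in all 4 libraries.

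Redox, metal and lipid lists held single calls. HMOX1, haem oxygenase and a target of the oxidative stress factor NRF2, measured 51.8 and 54.3 CPM in FLP and 86.4 and 84.2 CPM in FLP_TET, and it rose by 0.68 ± 0.17 (adjusted p = 0.0499), but not with the correction (0.44, adjusted p = 0.0972). Other NRF2 targets went both ways without passing. Of all 21 tested, HMOX1 included, 11 did not overlap upward and 6 downward, beside 29.1% and 28.9% of all genes. PRDX1 (peroxiredoxin) had a log2 fold change of 0.38, and GCLM, which with GCLC makes the first enzyme of glutathione synthesis, had -0.65. The list's median was 0.20, or 0.15 with the correction. FTL and FTH1, the ferritin chains, measured 177 and 200.2 CPM and 70.0 and 81.8 CPM in FLP, and 238 and 258 CPM and 104 and 101 CPM in FLP_TET, uncalled at 0.40 and 0.43. Of 16 metallothionein and zinc transport genes, SLC30A9 fell without the correction only (-1.08, adjusted p = 0.0499) and SLC39A14 with it only (-0.54, adjusted p = 0.0491), and MT2A, a metallothionein gene, had overlapping values. In cholesterol synthesis IDI1 fell without the correction only (-0.84, adjusted p = 0.0499, and -0.56 without FLP_1) and EBP with it only (-0.65, adjusted p = 0.0220), of 22 tested. HMGCS1, the synthase before the rate-limiting step, measured 524 and 441 CPM in FLP and 286 and 309 CPM in FLP_TET (-0.70, adjusted p = 0.0513). None of 14 fatty acid synthesis genes was called with or without the correction. Their median of -0.23, the lowest uncorrected median of the 33 lists, became -0.02 with the correction and was -0.13 without FLP_1.

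Lysosome and autophagy genes gave no call among 30, and 14 did not overlap upward and 2 downward, beside 29.1% and 28.9% of all genes. CTSD (cathepsin D) measured 157 and 174 CPM in FLP and 255 and 234 CPM in FLP_TET (0.56, adjusted p = 0.0884). TFEB, the transcription factor of lysosome genes, measured 6.93 and 8.32 CPM in FLP and 12.7 and 13.4 CPM in FLP_TET (0.76, adjusted p = 0.161). The median was 0.10, or 0.07 with the correction. In the proteasome, PSMC5, an ATPase of the regulatory particle, measured 324 and 307.5 CPM in FLP and 185 and 207 CPM in FLP_TET. Its untreated values nearly met, it fell by 0.69 ± 0.15 (adjusted p = 0.0463) or by 0.81 with the correction (adjusted p = 0.0100), and without FLP_1 the value was -0.65. PSMC3, a neighbouring ATPase, fell with the correction only (-0.67, adjusted p = 0.0493), and the other 30 of 32 were not called.

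Replication genes changed in both directions within 1 complex. MCM3 and MCM5 encode subunits of the MCM helicase that unwinds DNA. MCM3 measured 348 and 317 CPM in FLP and 197 and 225 CPM in FLP_TET, and it fell by 0.66 ± 0.15 (adjusted p = 0.0468), or by 0.75 with the correction (adjusted p = 0.0181). MCM5 measured 92.2 and 105 CPM in FLP and 160.5 and 158 CPM in FLP_TET, and it rose by 0.69 ± 0.16 (adjusted p = 0.0468), or by 0.50 with the correction (adjusted p = 0.0422). Both moved about as far without FLP_1, at -0.59 and 0.60. MCM7 had 0.63 (adjusted p = 0.0598), MCM2 had 0.38, and MCM4 and MCM6 had 0.04 and -0.09. FEN1, the flap endonuclease of lagging strand synthesis, measured 283 and 223 CPM in FLP and 139 and 166 CPM in FLP_TET, and it fell by 0.73 ± 0.17 (adjusted p = 0.0468), or by 0.88 with the correction (adjusted p = 0.0190). The other 26 of 29 G1/S genes were not called, and the list's median was 0.16, or 0.10, and 0.07 without FLP_1.

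Mitotic and histone genes gave 1 call. CENPE, a kinesin of the kinetochore, fell by 1.11 ± 0.27 (adjusted p = 0.0499), from 42.7 and 24.1 CPM to 18.3 and 12.1 CPM, but not with the correction (-0.66, adjusted p = 0.148), and its uncorrected value without FLP_1 was also -0.66. It is a transcript of 35.3% GC. Of the abundant G2/M genes AURKB had 0.52 (adjusted p = 0.0667) and TOP2A -0.19. None of 14 replication-dependent histone genes tested was called, and these transcripts mostly lack a poly(A) tail. None of 23 p53 targets was called without the correction. With it GADD45A fell (-0.77, adjusted p = 0.0379), from 60.9 and 53.5 CPM to 40.1 and 31.5 CPM. None of 14 interferon-stimulated or 22 immediate early genes was called either way, beside 1.02% and 1.41% of all genes. Their medians were -0.04 and -0.07, and both became -0.19 with the correction, at the low end of the 33 lists.

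Cytosolic ribosomal protein genes, at 77 tested, held 3 fallers without the correction and 6 with it, beside 0.795% and 1.03% of all genes. RPL26 measured 2634 and 1262 CPM in FLP and 890.0 and 1005 CPM in FLP_TET, and it fell by 1.04 ± 0.22 (adjusted p = 0.0463), or by 1.04 with the correction. The untreated libraries lay further apart than FLP_2 lay from the treated ones, and without FLP_1 the value was -0.41. RPL34 measured 1701 and 1050 CPM in FLP and 794 and 798 CPM in FLP_TET (-0.79 ± 0.18, adjusted p = 0.0468), and without FLP_1 the value was -0.40. RPS19 measured 8727 and 8860 CPM in FLP and 6335 and 7069 CPM in FLP_TET, with tight untreated values, and it fell with the correction only (-0.60, adjusted p = 0.0190). RPL7L1, a paralog rather than a ribosome subunit, fell both ways (-0.71 and -0.61), and RPL13 and RPL36 fell with the correction only. Ribosomal protein genes have many processed copies, so reads may be split among them. The list's median was 0.10, or 0.03, with 26 of the 77 not overlapping upward and 21 downward, near the 29.1% and 28.9% of all genes. Of 34 ribosome biogenesis genes MYBBP1A fell with the correction only (-0.57, adjusted p = 0.0474), 17 did not overlap downward and 7 upward, beside 28.9% and 29.1% of all genes, and the median was -0.17, or -0.10 both with the correction and without FLP_1. Among 19 small nucleolar RNA host genes SNHG25 rose without the correction only, and SNHG12 and ZFAS1 fell with it only (-1.15 and -0.75, or -0.47 and -0.27 without FLP_1).

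Chromatin genes include the riser with the largest fold change among those that reached 10 CPM. KDM8, which encodes a JmjC-domain protein, measured 5.83 and 7.21 CPM in FLP and 18.3 and 16.2 CPM in FLP_TET, at low counts, and it rose by 1.38 ± 0.29 (adjusted p = 0.0440), or by 1.17 with the correction (adjusted p = 0.0440). SETD7, a lysine methyltransferase gene, measured 137 and 73.2 CPM in FLP and 44.5 and 47.0 CPM in FLP_TET, and it fell by 1.19 ± 0.24 (adjusted p = 0.0440), or by 1.02 with the correction (adjusted p = 0.0220), and without FLP_1 its values were -0.68 and -0.55. The other 39 of 41 Polycomb, methyltransferase and demethylase genes were not called. Of 358 genes named ZNF, 5 fell and 1 rose, beside 0.795% and 0.226% of all genes. With the correction 2 fell, ZNF146 and ZNF550, beside 1.03% of all genes. ZNF146 measured 301.5 and 248 CPM in FLP and 136 and 157 CPM in FLP_TET (-0.91 ± 0.19, adjusted p = 0.0440). Among the 358, 128 did not overlap downward and 66 upward, beside 28.9% and 29.1% of all genes, and the median of -0.16 became -0.10. The family is AT-rich, at a median of 43.5% GC, and reads of its similar members may be misplaced. None of 39 SR and hnRNP splicing factor genes tested, whose names also take in processed copies, was called.

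The fallers with the largest fold changes include nuclear RNAs and genes of nucleolar proteins. MALAT1 measured 1364 and 540.4 CPM in FLP and 395 and 307 CPM in FLP_TET, and NEAT1, the RNA scaffold of paraspeckles, 165.5 and 71.3 CPM in FLP and 54.0 and 38.1 CPM in FLP_TET. They fell by 1.44 ± 0.27 and 1.35 ± 0.27 (adjusted p = 0.0440 each, edgeR), or by 1.08 and 1.12 with the correction. FLP_1 was the high library in both, and without it MALAT1 had -0.62 and NEAT1 -0.63. KIF21A, a kinesin gene, measured 51.8 and 29.9 CPM in FLP and 16.8 and 13.7 CPM in FLP_TET and fell by 1.40 ± 0.29. MPHOSPH10, of the U3 small nucleolar ribonucleoprotein, measured 45.6 and 24.7 CPM in FLP and 15.04 and 12.08 CPM in FLP_TET and fell by 1.35 ± 0.28. ASNSD1 and CWF19L2 fell by 1.36 and 1.30. Without FLP_1 the values of MPHOSPH10 and CWF19L2 were -0.86 and -0.87. All of these also fell with the correction, and ZNF248, ZNF292, ANKRD12 and HMGN5 did not pass with it. AC093297.3 had the largest fall among the genes called, from 27.4 and 18.3 CPM to 5.02 and 4.45 CPM (-2.24 ± 0.36, adjusted p = 0.0331), but it had no GC or length value here and received no correction.

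Among risers, BRMS1, a gene of a histone deacetylase complex, measured 14.22 and 18.02 CPM in FLP and 33.0 and 45.4 CPM in FLP_TET and rose by 1.27 ± 0.27, or by 0.97 with the correction (adjusted p = 0.0349). AKT1S1, which encodes the mTOR inhibitor PRAS40, measured 45.2 and 55.5 CPM in FLP and 92.6 and 89.6 CPM in FLP_TET and rose by 0.85 ± 0.18, or by 0.58 (adjusted p = 0.0422). RAC3 rose by 0.96 ± 0.19, or by 0.58 (adjusted p = 0.0489). NBEAL2, MEIS3, FAM207A, NFKBIL1, RPRM and LGALS3BP rose without the correction only, and all 6 have a GC content of 59.6% or more. With the correction NDUFA9, BRMS1 and KDM8 were joined by RAD51D, FARSB and LMCD1, and by the noncoding RNU2-63P and AC115618.3. RAD51D, FARSB and LMCD1 are less GC-rich (41.6% to 47.1%) in the transcripts used here, of 9988, 3369 and 8405 bases. Among fallers the correction brought in WT1, a developmental transcription factor gene, at 17.1 and 12.8 CPM in FLP and 7.97 and 6.99 CPM in FLP_TET (-1.30, adjusted p = 0.0276), and POLR1E, an RNA polymerase I subunit gene (-1.28, adjusted p = 0.0491). DPP9, a protease gene of 59.7% GC, fell both ways (-0.94 and -1.20). GOLGA8A, which has near-identical copies, also fell with the correction (-1.39, or -0.69 without FLP_1).

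**Figure D4:**
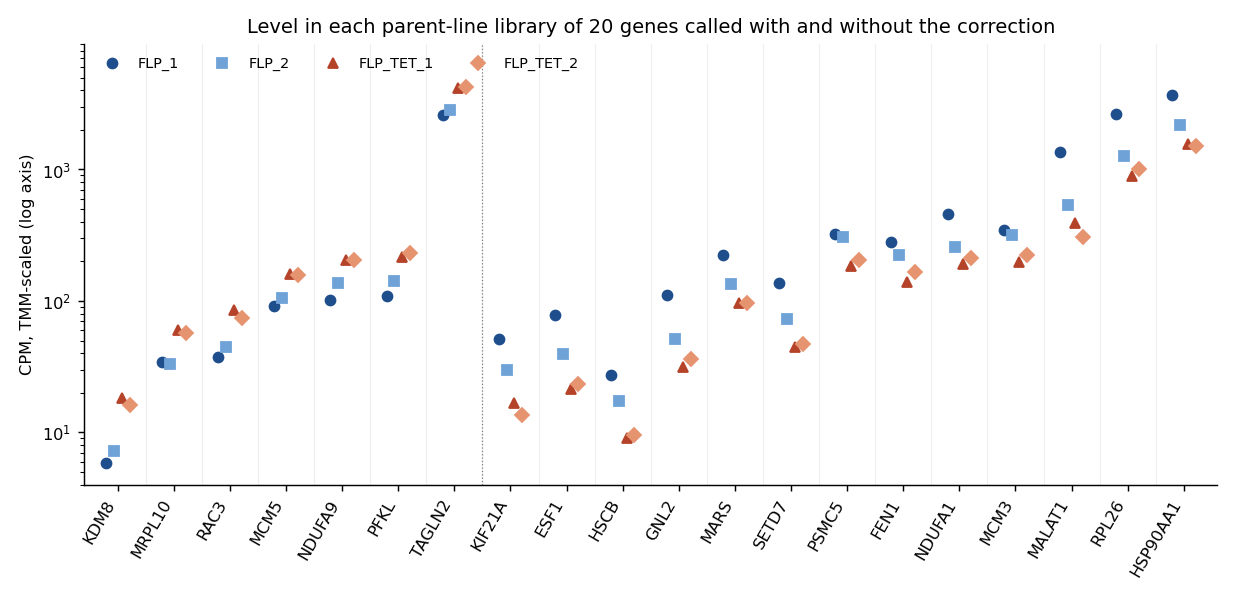
CPM (log axis) of 20 genes called in the same direction with and without the GC and length correction, 1 point per parent-line library, with the 7 risers left of the dotted line and the 13 fallers right of it. Both treated libraries lie beyond both untreated ones in each gene, which the call nearly fixes, and FLP_1 lies above FLP_2 in all 13 fallers, as for RPL26 at 2634 and 1262 CPM.

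The RPRD genes themselves were not called. RPRD1A measured 61.6 and 47.4 CPM in FLP and 55.5 and 52.1 CPM in FLP_TET, RPRD1B 34.6 and 34.1 CPM in FLP and 29.5 and 29.2 CPM in FLP_TET, and RPRD2 62.4 and 60.7 CPM in FLP and 72.3 and 75.3 CPM in FLP_TET. The untreated and treated values of RPRD1B and RPRD2 did not overlap, in opposite directions, with log2 fold changes of -0.23 (adjusted p = 0.520) and 0.26 (adjusted p = 0.342).

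In the RPRD1B_FL line with and without tetracycline, most genes called in the parent line had fold changes of the same sign but smaller size. RPRD1B measured 43.2 and 43.8 CPM without and 83.9 and 64.6 CPM with tetracycline there (0.77, adjusted p = 0.402), and RPRD1A 45.6 and 44.2 CPM without and 25.4 and 24.4 CPM with it (-0.85, adjusted p = 0.443). Neither was called, the groups overlapped in neither gene, and the part of these genes in the comparison was not tested. That comparison shares no samples with the parent one. Of the 27 risers 26 (96.3%) were also positive there and of the 95 fallers 90 (94.7%) also negative, against 68.2% of all genes with the same sign. The median log2 fold changes there were 0.34 and -0.32, against 0.78 and -0.98 in the parent line, where the genes were chosen. Spearman's rank correlation of the fold changes of the lines was 0.44 across all genes and 0.27 after the correction, and the share with the same sign was 61.5% of all genes after it, against 95.6% of the corrected risers and 89.4% of the corrected fallers. The GC slope was present there too (rank correlation 0.44). No gene was called in that line without the correction (733 at an unadjusted p under 0.05) and 3 were with it. A test of the difference between the lines called 0 genes in edgeR with or without the correction (477 and 681 at an unadjusted p under 0.05) and 0 in DESeq2 (175). MCM3 had -0.18 in that line, FEN1 -0.01, PFKL 0.17, NDUFA9 0.25, MRPL10 0.50 and NDUFA1 0.06, and for each the difference between the lines did not pass.

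**Figure D5:**
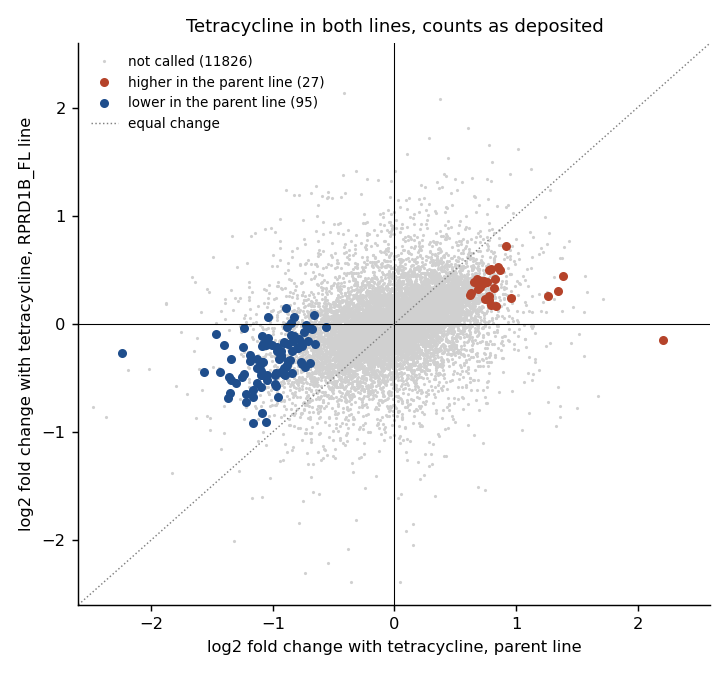
Log2 fold change with tetracycline in the parent line (horizontal axis) and in the RPRD1B_FL line (vertical axis), 1 point per gene, with the 27 risers and 95 fallers of the parent line in colour and the dotted line marking equal change. Most coloured points keep their sign (26 and 90) but lie nearer to 0 on the vertical axis, and 4 genes lie outside the axes.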

How the data were processed

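The authors deposited 1 raw count for each of 58138 gene names in every sample. FastQC, STAR, HTSeq, DESeq2 and GRCh38 are named in the submitters' processing notes with no role, order or version, and the annotation and strand setting are not given in the sources used here. Without a stated strand, reads of a gene and its antisense partner cannot be told apart. The 5 closing rows were dropped, of which the reads outside genes made up 16.7% to 19.5% of all reads listed in the parent line. Groups and replicate numbers come from the labels.

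All 8 Flp-In samples entered 1 fit with a coefficient per group in edgeR 4.0.16 (R 4.3.3, limma 3.58.1): filterByExpr (minimum count 10, minimum total 15), TMM scaling, quasi-likelihood test and Benjamini-Hochberg adjustment over all 11948 genes tested. SE was derived from the fold change and the F statistic. GC content and length come from 1 GENCODE 29 transcript per gene, matched by name for 11750 genes and by an older symbol for 119. It was the one tagged as principal (APPRIS) where there was a tag, and then the longest. It may differ from the transcript expressed in these cells. For the correction, each sample's log2 deviation from the gene mean (log2 CPM, prior count 1) was smoothed on GC content and then on log10 length by lowess (span 0.3, 2 passes), and the curves were added as offsets. DESeq2 1.42.0 served as an alternative.

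The 36 gene lists and 6 marker sets were chosen with earlier results of these data known. Named genes are up to 12 called risers and 12 called fallers with the largest fold change, no overlap between groups and a mean of 10 CPM or more in the higher group; up to 8 each with the correction; each list's called members and its 4 most abundant ones; the RPRD genes; and up to 4 genes called between the lines. Other genes were chosen after their values were seen. The alternatives were RLE size factors, DESeq2, 2 other filters on low counts, the 4 parent samples alone, a replicate block, separate and joint GC and length corrections, GC content of the last 300 bases, an added fold threshold (log2 of 1), and each sample left out in turn. A few results for single genes are not reported here.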

Additional observations from a re-analysis of the deposited data

How the results depend on the processing

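The number of genes called with tetracycline, 122, depended on the processing, and the cause was not tested. It was 250 with DESeq2 (136 higher, 114 lower), 762 with no filter on low counts, 0 with a mean count of 50 or more (1946 at an unadjusted p under 0.05), 1273 with the 4 parent samples alone, 60 with a GC correction on the last 300 bases, and 48 with a fold threshold (log2 of 1 in either direction), a subset by construction. RLE size factors gave 121, the length correction 177 and the joint correction 168. Leaving out 1 sample gave 0 to 1307 genes, and with the GC and length correction, added after the data were seen, 0 to 738. The difference between the lines called 0 to 5 genes when 1 sample was left out and 0 to 69 with the correction, the higher values without FLP_2, and 0 under the other alternatives.

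The replicate block, which pairs samples by number, left 1 gene, and 145 when joined to the GC and length correction. Same-numbered deviations of FLP and FLP_TET had a correlation of 0.0777, a value that covers the parent line only. In the RPRD1B_FL line, library 2 over library 1 had a rank correlation with GC content of -0.450 untreated and -0.494 treated. Whether the numbers pair the samples was not tested further.

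The rank correlation of fold change with GC content (0.557) was 0.388 and 0.474 for FLP_TET_1 and FLP_TET_2 over FLP_2, 0.631 at a mean count of 50 or more, and 0.448 to 0.540 without 1 sample. The rank correlation with length (-0.198) was -0.131 for FLP_TET_1 over FLP_2, -0.254 at a mean count of 50 or more, and -0.195 to -0.147 without 1 sample. Of 34 list medians, 15 changed sign with the GC correction 13 with the joint one, 9 without FLP_1, 4 to 6 without another parent sample, and 0 with RLE. Of 48 called genes named by the rule, 30 kept their call with the joint correction, 47 with RLE, 23 of 27 in DESeq2 and 1 with the block, and none reversed. Genes below the filter on low counts were not tested.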

Other observations

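The genes below stand in none of the gene lists and were chosen after their values were seen, so they support no statement on a pathway. All of them passed the test in the same direction with and without the correction. GNL2, which encodes a nucleolar GTPase, measured 110.8 and 51.3 CPM in FLP and 31.3 and 36.2 CPM in FLP_TET, for -1.25 and a corrected -1.16. DNAJC2, a ribosome-associated co-chaperone gene, measured 102.8 and 56.6 CPM in FLP and 36.0 and 36.2 CPM in FLP_TET, for -1.13 and -0.95. FLP_1 lay well above FLP_2 in both, and without it the values were -0.60 and -0.55 for GNL2 and -0.65 and -0.51 for DNAJC2. DDX46, which encodes a helicase of the early spliceosome, measured 448.5 and 219 CPM in FLP and 169.9 and 160.2 CPM in FLP_TET (-1.01, corrected -0.78), and without FLP_1 its values were -0.41 and -0.25.

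MTOR, which encodes a kinase of growth control, measured 86.0 and 55.2 CPM in FLP and 41.3 and 36.5 CPM in FLP_TET (-0.85, corrected -0.90), and without FLP_1 its values were -0.50 and -0.52. GPD2, the mitochondrial enzyme of the glycerol phosphate shuttle, fell from 50.7 and 35.5 CPM to 18.9 and 21.3 CPM (-1.09, corrected -0.81). PADI3 had the largest rise, from 1.09 and 1.39 CPM to 6.20 and 5.72 CPM (2.21, corrected 2.04), with untreated values close to the floor of detection, and in the RPRD1B_FL line it had the opposite sign.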
